A study of Mus musculus with 9 samples.

Results

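Granule neuroblasts of the dentate gyrus (DG) with a high count of Tubb3, the neuronal class III beta-tubulin, made up 150 of the 7402 cell barcodes in the series. They were selected on measured counts among the 2027 DG barcodes that held at least 1500 unique molecular identifiers (UMIs, each standing for 1 captured RNA molecule) and at most 10% of UMIs from mitochondrial (mt-) genes. A selected cell held at least 3 UMIs of Tubb3, at least 1 UMI of Eomes or Neurod1, and no UMI of Pdgfra, a receptor of oligodendrocyte progenitor cells (OPCs), or of Gad1, an enzyme of inhibitory neurons. The levels of these 5 genes follow from the selection and are given as descriptions only.

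The mice were heterozygote Dcx-GFP animals, in which the promoter of Dcx, a microtubule protein of migrating neuroblasts, drives green fluorescent protein. GFP+ cells were sorted from the DG, the subventricular zone (SVZ) and the olfactory bulb (OB) at ages labelled 3, 14 and 24 months, each of which stands for a range of months, without a further treatment in any group. Tissue of 4 to 5 mice was pooled per region and age, and each pool gave 1 droplet-based 3′ library, so that no age has a replicate and no test between ages could be run. The regions of an age were taken from the same mice, so that DG and SVZ ratios between ages do not come from separate animals. Intervals are exact 95% intervals that cover counting error only, and they say nothing of differences between mice, sorts or libraries. The 3, 14 and 24 month DG libraries held 3869007, 5132146 and 1544351 UMIs in 890, 1198 and 349 barcodes. Because cells were taken from a Dcx-GFP gate, cells that had left that gate were not sampled.

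New granule neurons of the adult DG descend from radial stem cells through dividing intermediate progenitors that express the transcription factor Eomes (Tbr2). Their daughters switch on Neurod1 and Prox1, lay down a neuronal microtubule and actin cytoskeleton with Dcx and Tubb3, pass through a stage with the calcium-binding protein Calb2 (calretinin), and take up Calb1 (calbindin) once mature. This series of stages slows steeply with age in rodents, and the selection described here takes in cells from dividing progenitors to the calretinin stage.

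The neuroblasts were far fewer in the older libraries. There were 125 at 3 months, 21 at 14 months and 4 at 24 months, which was 17.8% (15.05 to 20.8) of 702 barcodes within the limits, 2.03% (1.26 to 3.08) of 1035 and 1.38% (0.377 to 3.49) of 290. The interval at 3 months lay above the other 2, which overlapped each other. With every barcode thinned to 1500 UMIs the shares were 8.12%, 0.676% and 0.345%. Eomes progenitors with at most 2 UMIs of Tubb3 were fewer as well, with 69, 11 and 0 cells. A count of 0 among 290 barcodes allows a share of up to 1.03%. Here 3 counts are the limit, as for other shares, levels and folds from a count of 0, but not for log2 ratios. Neuroblasts therefore made up 64.4% (57.3 to 71.2) of these granule lineage cells at 3 months and 65.6% (46.8 to 81.4) at 14 months. OPCs, taken as cells with at least 2 UMIs of Pdgfra, at most 2 of Tubb3 and none of Eomes or Neurod1, numbered 37, 455 and 148. Since sorted cells share 1 total, fewer neuroblasts in the tissue and more GFP+ OPCs in the sort cannot be told apart from these shares.

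**Figure D1:**
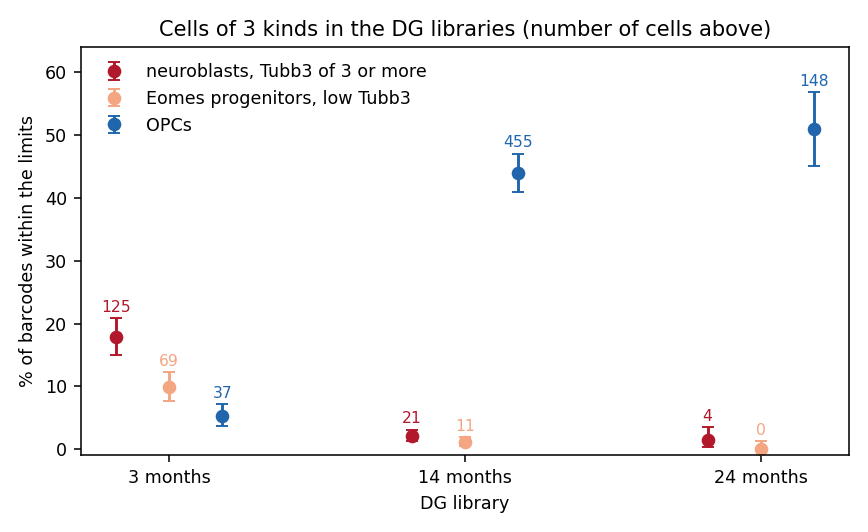
Share of the DG barcodes within the limits (y axis, percent) for neuroblasts, Eomes progenitors with low Tubb3 and OPCs in the 3 libraries (x axis), with exact 95% intervals as bars and the number of cells above. Neuroblasts went from 17.8% at 3 months to 2.03% at 14 months and 1.38% at 24 months, whereas OPCs were 5.27%, 44.0% and 51.0%.

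The depth of the neuroblasts was similar between ages, with a median of 5729 UMIs (range 1901 to 13199) at 3 months, 5136 (2374 to 10077) at 14 months and 7491.5 (5748 to 7951) at 24 months. Their summed UMIs were 730032, 113293 and 28682, and these sums are the totals behind all levels in counts per 1000000 UMIs (CPM) below. Of the barcodes that met the rest of the rule, 16 at 3 months and 2 at 14 months had 2 UMIs of Tubb3 and stayed just outside, and 13 and 2 had exactly 3 and were just inside. At 3 months the cells just outside held 666 CPM of the mitotic topoisomerase Top2a and 72.2 CPM of the microtubule destabilizer Stmn2, and those just inside held 206 and 238 CPM. Pdgfra or Gad1 removed 1 cell at 3 months and 2 at 14 months. Cell barcodes were hardly shared, with 2 in common over the 3 pairs of DG libraries and at most 3 in any pair of the series.

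Of the granule neuroblast markers that the selection had not used, Igfbpl1, Sox11 and Sox4 were present in nearly all of these cells, and the others in fewer. Igfbpl1, a binding protein of the insulin-like growth factor family, was found in 124 of 125 neuroblasts at 3 months, 21 of 21 at 14 months and 4 of 4 at 24 months. Sox11, a transcription factor that switches on Dcx and other neuronal genes, was found in 123, 21 and 4. In the OPCs of the same libraries, which had median depths of 4422 and 4734 UMIs, Igfbpl1 was found in 13.5% (4.54 to 28.8) of cells at 3 months and 2.42% (1.21 to 4.28) at 14 months. Dcx itself was sparse, in 91 of 125, 18 of 21 and 3 of 4 neuroblasts, with a median of 1 UMI in the 3 and 14 month cells, and it was also found in 27.0% (13.8 to 44.1) and 20.7% (17.0 to 24.7) of OPCs. Prox1, which specifies granule neuron identity, was found in 81, 14 and 3 neuroblasts and in 5.41% (0.661 to 18.2) and 7.03% (4.86 to 9.78) of OPCs.

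Markers of mature granule neurons were close to absent. Of 10 such genes, 7 had no UMI in any neuroblast, Calb1 had 3 UMIs in a single cell at 3 months, and Pcp4, a calmodulin-binding peptide that neuroblasts also express, accounted for 919 of the 923 UMIs of the list at 3 months and 142 of 143 at 14 months. The 8 microglia genes had 1 UMI over all neuroblasts, the 6 endothelial or mural genes had 3 at 3 months and 1 at 14 months, and the 4 ependymal genes had 2 and 0. At 3 months 2 cells went against the label, with 25 and 17 of the 94 UMIs of the Cajal-Retzius genes, which include Reln, Lhx5 and Nhlh2, and with 0 and 1 UMIs of Igfbpl1 and none of Sox11. At 14 months, 1 cell selected through Eomes alone held 23 of the 24 UMIs of the inhibitory neuroblast genes, which include Dlx1 and Dlx2. For 14 over 3 months the log2 ratio was −1.17 (−2.76 to −0.11) for the Cajal-Retzius genes and 1.62 (0.84 to 2.33) for the inhibitory genes. Without the top cell of each library the former was −0.89 (−2.68 to 0.28) and the latter −2.11.

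**Figure D2:**
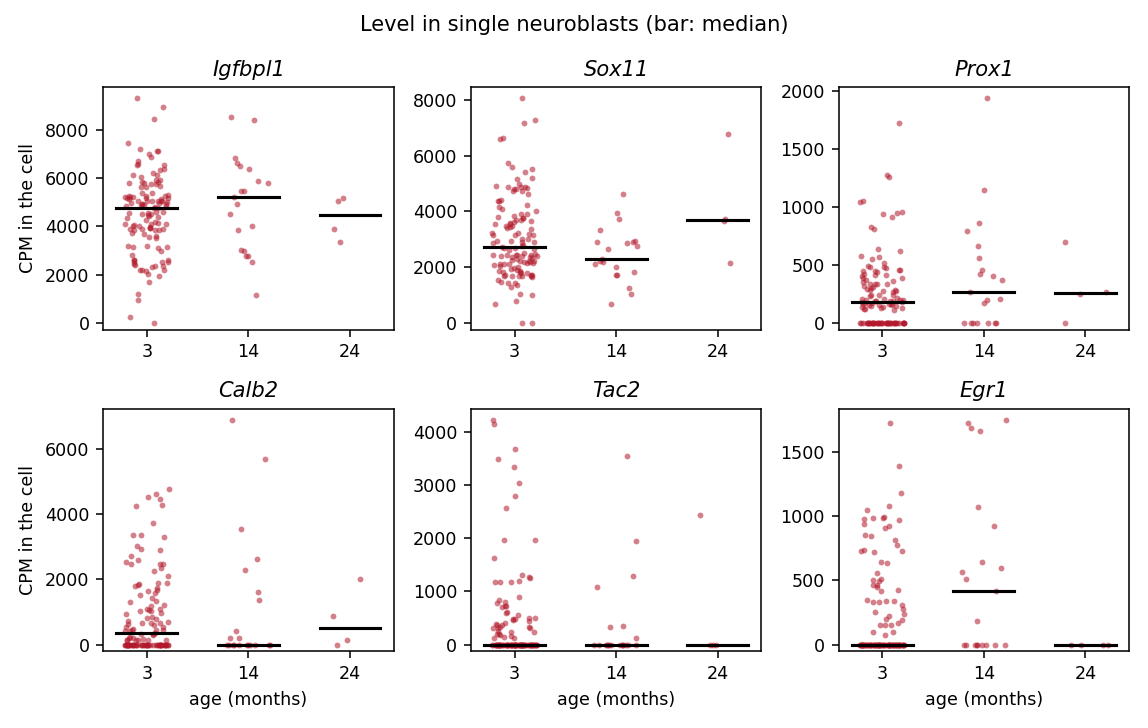
Level of 6 genes (y axis, CPM within the cell) in each neuroblast (points) at 3, 14 and 24 months (x axis), with the median of the cells as a bar. Igfbpl1 and Sox11 were found in nearly all cells, whereas Calb2 and Tac2 were high in some and at 0 in others, and the 14 month median of Egr1 lay above 0, unlike at 3 and 24 months.

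Set beside the other cells of the 3 month libraries, the neuroblasts differed in many genes, given here as a description because the selection fixed both sides. Against OPCs, the 10 genes with the highest ratio were Neurod1, Stmn2, Mfap4, Elavl2, Tac2, Ezr, Igfbpl1, Eomes, Sema3c and Rbfox3. Stmn2 had 418 UMIs in the neuroblasts and 0 in OPCs, at least 30.4-fold higher with 3 UMIs as the limit of a count of 0, and Tac2, the precursor of the peptide neurokinin B, had 296 and 0, at least 21.5-fold higher. Against Eomes progenitors with low Tubb3, the leading genes were Stmn2, Calb2, Stmn4, Cd24a, Tubb3, Neurod2, Neurod6, Tspan4, Rab3a and 6330403K07Rik. Calb2 stood at 821 CPM in the neuroblasts and 12.2 CPM in these progenitors, a log2 ratio of 5.98 (5.02 to 7.40). Among the lowest ratios were those of the chromatin remodeller Hells at 16.4 against 214 CPM and the receptor Gpr37l1 at 9.59 against 162 CPM.

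SVZ neuroblasts, a comparison whose genes were named after their values were seen, had at least 3 UMIs of Tubb3 and none of Eomes, Neurod1 or Pdgfra, and so shared the Tubb3 threshold. Emx1, a transcription factor of the dorsal telencephalon, had 171 UMIs in the DG neuroblasts at 3 months and 0 in the SVZ neuroblasts, at least 257-fold higher, and Neurod2 stood at 145 against 0.304 CPM. Sp9 and Gad2, a transcription factor and an enzyme of inhibitory neurons, had 0 UMIs in the DG neuroblasts. In the SVZ neuroblasts they had 2494 and 858 UMIs. The DG cells had to lack Gad1 and hold Eomes or Neurod1. No limit on Gad1 was set for the SVZ cells, so the selection itself favours these contrasts.

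The neuroblasts themselves were grouped by which of Eomes and Neurod1 was found in them, from an Eomes end to a Neurod1 end. At 3 months 9 held Eomes without Neurod1, 73 held both and 43 held Neurod1 without Eomes, and at 14 months these numbers were 1, 9 and 11. At 24 months there were 0, 2 and 2. Cells with Neurod1 alone were 34.4% (26.1 to 43.4) of neuroblasts at 3 months and 52.4% (29.8 to 74.3) at 14 months, and the intervals overlapped. When the same 125 and 21 cells were thinned to 1500 UMIs, 97 and 18 kept a UMI of Eomes or Neurod1. Of these, 55 and 13 held Neurod1 alone. In the full counts, the median depth was 4911 UMIs with Neurod1 alone and 5972 with both at 3 months. At 14 months it was 4678 and 5724. Eomes RNA that was present but not captured could also place a cell among those with Neurod1 alone.

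At 3 months the cells with Neurod1 alone held more of some neuronal genes, less of others and less of the cell cycle genes than those with both, as a description along the axis that Eomes and Neurod1 define. Calb2 stood at 1275 CPM in the former and 632 CPM in the latter, a log2 difference of 1.01 (0.77 to 1.26). Neurod2, which follows Neurod1 in differentiating granule cells, stood at 274 and 96.8 CPM (1.50, 0.92 to 2.10). Stmn2 stood at 841 and 431 CPM (0.96, 0.66 to 1.26), and Sema3c, a secreted guidance cue, at 411 and 202 CPM (1.02, 0.59 to 1.46). In the opposite direction, the cyclin Ccnd2 stood at 384 and 1356 CPM (−1.81, −2.17 to −1.49), the proneural factor Neurog2 at 9.14 and 176 CPM, and the 18 genes of G2 and M phase together at 964 and 1994 CPM (−1.05, −1.27 to −0.83), where 1 cell held 187 of the 211 UMIs in cells with Neurod1 alone and left 117 CPM without it. Elavl4, a neuronal RNA-binding protein, was lower as well, at 429 and 729 CPM (−0.76, −1.11 to −0.43), as was Pcp4 (−0.29, −0.52 to −0.08), whereas Rbfox3 (−0.09, −0.58 to 0.37) and the presynaptic list (0.07, −0.10 to 0.23) had intervals that held 0. The sum of the 23 glutamate and GABA receptor genes, most of it from Gria2, had a ratio of 0.72 (0.46 to 0.97), and the summed lineage transcription factors, without Eomes and Neurod1, differed by 0.06 (0.01 to 0.11).

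At 14 months Calb2 and Tac2 lay largely on opposite sides of this axis, in few cells. Calb2 had 11 UMIs in the 9 cells with both genes and 126 in the 11 cells with Neurod1 alone, or 200 and 2388 CPM, a log2 difference of 3.52 (2.69 to 4.62). All 11 of the former lay in 1 cell. The cell with the most Calb2 held 54 of the 137 UMIs, and Calb2 was found in 10 of 21 cells at 14 months against 76 of 125 at 3 months, although its summed level was higher at 14 months. OPCs also held Calb2, in 21.6% of cells at 3 months and 46.4% at 14 months, at 62.8 and 141 CPM. All 54 UMIs of Tac2 at 14 months lay in the cells with both genes, in 7 cells of which 1 held 23, whereas at 3 months 213 UMIs lay in cells with both and 78 in cells with Neurod1 alone. Against 3 months, Calb2 had log2 ratios of −1.60 (−2.68 to −0.80) in cells with both genes and 0.91 (0.59 to 1.21) in cells with Neurod1 alone, the latter 0.43 (0.03 to 0.81) without the top cell of each library. Whether the 2 ratios differ beyond the spread between mice could not be tested.

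**Figure D3:**
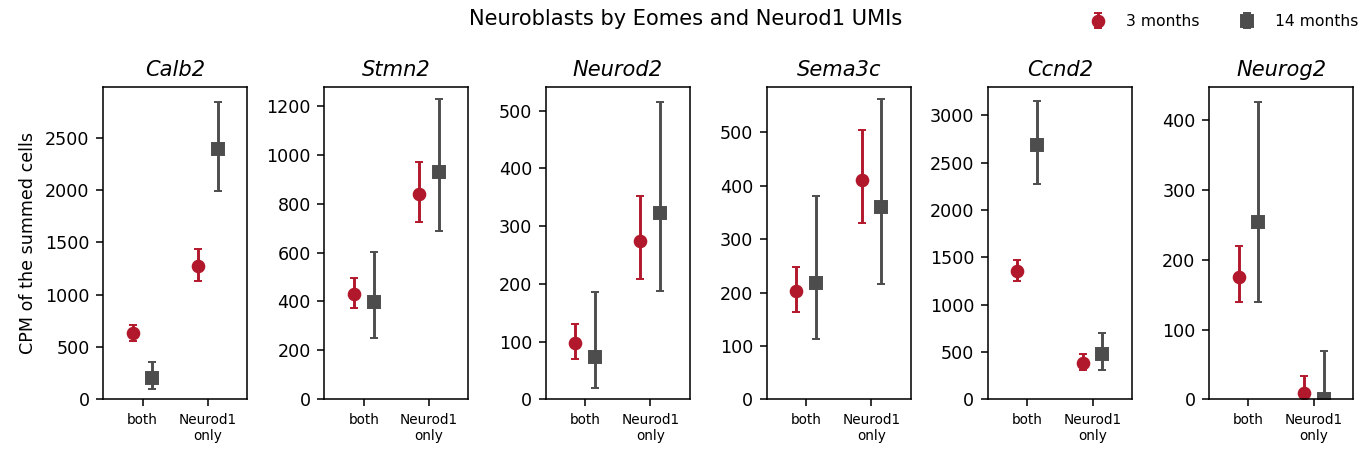
Level of 6 genes (y axis, CPM of the summed cells) in neuroblasts with UMIs of both Eomes and Neurod1 or of Neurod1 alone (x axis), at 3 months (circles, 73 and 43 cells) and 14 months (squares, 9 and 11 cells), with exact 95% counting intervals as bars. Calb2, Stmn2, Neurod2 and Sema3c had higher and Ccnd2 and Neurog2 lower levels in cells with Neurod1 alone at both ages, where for Sema3c at 14 months the interval of the ratio held 0.

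Across genes, the neuroblasts of 14 months were close to those of 3 months. Of 1491 genes that reached 100 UMIs when both sums were added, 19 differed by at least 2-fold (1.27% of genes compared), of which 7 were higher at 14 months (0.469%) and 12 were lower (0.805%). All 19 intervals reached below 2-fold. None held 0, but the same ratios picked these genes out of 1491, so this is not a separate check. The median log2 ratio was −0.03, and the central 90% of genes lay between −0.61 and 0.55. Across genes, which are not independent replicates, the Pearson correlation of log2 CPM was 0.956. At 14 months the median gene had 25 UMIs, and the median interval was 1.29 log2 units wide. The number of genes past 2-fold moved with the minimum, to 28 higher and 84 lower at 50 UMIs and to 2 higher and 0 lower at 200 UMIs. Among the 121 genes with at least 1000 UMIs none reached 2-fold, and they ranged from −0.43 for Fau, which encodes a ribosomal protein, to 0.71 for Ccnd2. Ccnd2 stood at 1131 CPM at 3 months, 1854 CPM at 14 months and 872 CPM at 24 months, with 52 of 210 UMIs at 14 months in 1 cell and a ratio of 0.53 (0.27 to 0.78) without the top cell of each library.

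**Figure D4:**
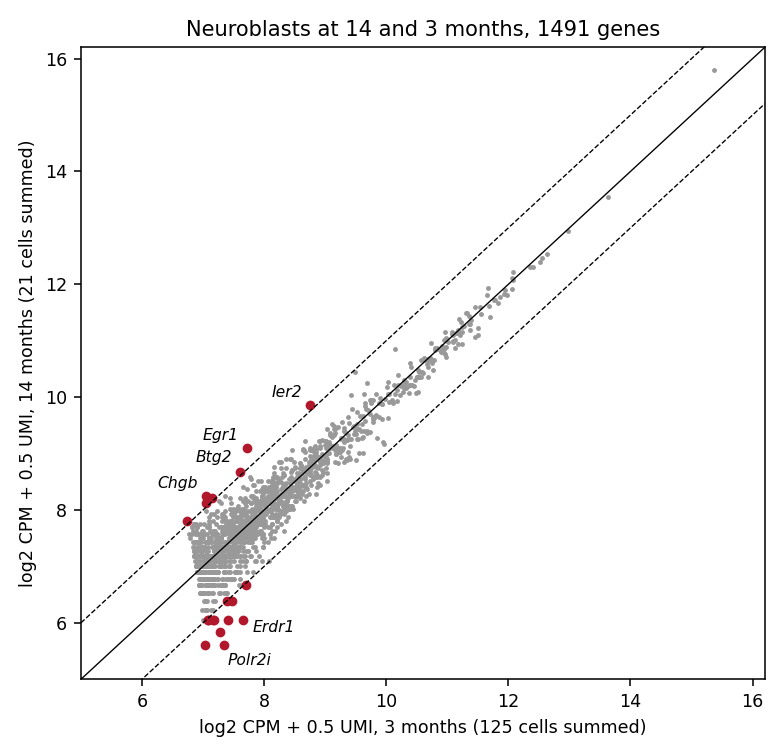
Summed level of 1491 genes in neuroblasts at 14 months (y axis) against 3 months (x axis), both as log2 CPM with 0.5 UMI added to each count. Solid and dashed lines mark equal levels and 2-fold differences, and red points are the 7 genes at least 2-fold higher and the 12 at least 2-fold lower at 14 months, which all had fewer than 1000 UMIs.

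Of the 7 genes that were at least 2-fold higher at 14 months, 4 belong to the early-response genes. Cells switch these on within minutes of activity or stress. Before capture, the tissue was dissociated, purified through a gradient and sorted. With 1 DG library per age, age and the preparation of that library cannot be told apart for these genes. Egr1, a zinc-finger transcription factor, had 153 UMIs (210 CPM) at 3 months, 62 (547 CPM) at 14 months and 0 at 24 months, which allows up to 105 CPM. Its log2 ratio of 14 over 3 months was 1.39 (0.93 to 1.82), and it was found in 51 of 125, 12 of 21 and 0 of 4 cells. Ier2, a nuclear immediate-early protein, stood at 430, 927 and 69.7 CPM, a log2 ratio of 1.11 (0.77 to 1.43), and 1 cell held 29 of its 105 UMIs at 14 months. The 14 month levels of both lay above those of 3 months. At 24 months they had 0 and 2 UMIs in 4 cells, too few for a statement. Btg2, an antiproliferative gene, stood at 195, 406 and 105 CPM (1.07, 0.55 to 1.55), with 15 of 46 UMIs in 1 cell at 14 months. Klf6, a Krüppel-like factor, stood at 141, 291 and 105 CPM (1.06, 0.43 to 1.62).

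The other 3 genes were of different kinds. Chgb, which encodes chromogranin B of secretory granules, stood at 132 CPM at 3 months, 300.1 CPM at 14 months and 105 CPM at 24 months (1.20, 0.58 to 1.77), and was found in 58 of 125 and 14 of 21 cells at 3 and 14 months. Zranb2, a splicing regulator, stood at 132, 274 and 139 CPM (1.07, 0.42 to 1.65). Map4k4, a kinase upstream of the JNK pathway, stood at 105, 221 and 139 CPM (1.08, 0.35 to 1.73). Within the cells with both Eomes and Neurod1 the ratios ran from 0.68 for Klf6 to 1.33 for Egr1, and the intervals of Klf6 (−0.34 to 1.50) and Zranb2 (−0.03 to 1.77) held 0. Within those with Neurod1 alone they ran from 0.63 for Ier2 to 1.40 for Klf6, and the intervals of Btg2 (−0.26 to 1.77) and Map4k4 (−0.08 to 2.00) held 0. Without the top cell of each library the ratios of Ier2, Btg2, Klf6 and Zranb2 lay under 2-fold, between 0.69 and 0.92. Without the top cell of each group, Ier2 was at −0.42 (−1.57 to 0.45) and Klf6 at −0.46 (−2.54 to 0.81) in the cells with both genes, and every interval there but that of Egr1 (0.93, 0.05 to 1.66) held 0. In the cells with Neurod1 alone every interval but that of Chgb (1.29, 0.22 to 2.26) then held 0, among them those of Egr1 (0.76, −0.10 to 1.51), Ier2 (0.36, −0.19 to 0.86), Klf6 (1.08, −0.13 to 2.13) and Zranb2 (0.99, −0.29 to 2.07). These are the same cells regrouped and not a second measurement. With every barcode thinned to 1500 UMIs before the selection, which left 57 and 7 neuroblasts with 85500 and 10500 UMIs, 131 genes reached 100 UMIs and none of the 19 genes past 2-fold was among them, so that the thinned counts hold no comparison of these genes. Egr1 had 20 and 1 UMIs there, Ier2 54 and 5, and Btg2 25 and 2, and the intervals of their ratios held 0. Among the cells with Y-linked and no Xist UMIs the interval of Btg2 also held 0 (−0.34, −1.69 to 0.65, on 65 and 8 UMIs). The same was so there for Ier2 (0.36, −0.36 to 0.98), Chgb (0.63, −0.76 to 1.71) and Map4k4 (1.12, −0.13 to 2.15). Among those with Xist and no Y-linked UMI, 4 cells at 14 months, it held 0 for Zranb2, on 26 and 2 UMIs, and for Chgb (1.26, −0.40 to 2.47). Ier2 stood at 2.21 (1.68 to 2.71) and Btg2 at 2.71 (1.83 to 3.52) in the latter cells.

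Of these genes, 2 carry the palindromic cAMP response element, the 8 letters TGACGTCA that read alike on both strands and that the activity-dependent factor CREB binds. The 250 bases before the start of a gene were searched in the promoter table of RefSeq for GRCm38.p6, where 4 of the 7 genes had an entry (Btg2, Chgb, Klf6 and Zranb2), and the element was found in Btg2 and Chgb, against 1.55% of 32851 promoters. The windows show 11 bases on each side of the element, in capitals, on the strand of the gene. The Chgb window is chr2:132781559-132781588 on the plus strand, with the element beginning 72 bases before the RefSeq start used in that table. GENCODE vM21 places the start of Chgb upstream of this window, which then lies inside the gene. The Btg2 window is chr1:134079303-134079332 on the minus strand, with the element beginning 166 bases before the RefSeq start. The element was chosen after the values of these genes were seen, so 2 of 4 genes beside 1.55% is not a test of enrichment. Matches of letters are a description and say nothing of what bound there in these cells.
Chgb: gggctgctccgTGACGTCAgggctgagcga
Btg2: gttcccaataaTGACGTCAgtgagcgatga

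Other cells of the DG libraries, and neuroblasts of the SVZ libraries, gave other values. In OPCs, Egr1 had 0 of 159299 UMIs at 3 months and 34 of 2169171 at 14 months, and Btg2 had 0 and 61, while Ier2 stood at 56.5 and 52.1 CPM (−0.19, −1.09 to 1.05). In Eomes progenitors with low Tubb3, Egr1 had a log2 ratio of 0.89 (0.36 to 1.38) and Klf6 of 1.25 (0.47 to 1.95), but Btg2 one of −0.64 (−1.42 to −0.01). In SVZ neuroblasts the ratios of Egr1, Ier2, Btg2 and Klf6 lay between 0.04 and 0.26. Over the 25 early-response and heat-shock genes together, of which 11 were compared and 4 were at least 2-fold higher in the DG neuroblasts (against 0.469% of all genes compared), the log2 ratio was 0.26 (0.17 to 0.35) in DG neuroblasts, 0.22 (0.10 to 0.34) in OPCs, 0.20 (0.09 to 0.31) in Eomes progenitors and −0.01 (−0.03 to 0.02) in SVZ neuroblasts. Within the DG neuroblasts it was 0.20 (0.06 to 0.33) in cells with both Eomes and Neurod1 and 0.11 (−0.03 to 0.24) in cells with Neurod1 alone, and both intervals held 0 without the top cell of each group, at 0.14 (−0.01 to 0.29) and −0.01 (−0.16 to 0.13). At 3 months the list was already higher in the latter, by 0.31 (0.24 to 0.39), and their share was 34.4% at 3 months and 52.4% at 14 months. The ratio of the list in DG neuroblasts was −0.19 (−0.52 to 0.11) in the thinned counts, 0.08 (−0.07 to 0.21) among cells with Y-linked and no Xist UMIs and 0.92 (0.73 to 1.11) among those with Xist and no Y-linked UMI. Members outside the 2-fold group included Fos at 407 and 591 CPM (0.55, 0.13 to 0.93), Jun at 792 and 1059 CPM, and the constitutive chaperone Hspa8 at 3493 and 3363 CPM. In cells with both genes Fos was at −0.56 (−1.65 to 0.27), and at −2.38 (−5.76 to −0.81) without the top cell of each group. With Neurod1 alone it was at 0.41 (−0.12 to 0.88). Dusp1 had 120 and 15 UMIs, with ratios of −0.72 (−3.25 to 0.71) and −0.54 (−1.66 to 0.33) in the same groups.

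The 12 genes at least 2-fold lower at 14 months had at most 11 UMIs there, so each rests on few molecules. They reached the minimum of 100 UMIs almost wholly through the larger 3 month sum, where they are high. Their number is therefore not to be weighed against that of the higher genes. Erdr1 had 147 UMIs (201 CPM) at 3 months, 7 (61.8 CPM) at 14 months and 6 (209 CPM) at 24 months, a log2 ratio of −1.61 (−3.04 to −0.63). It was also lower in OPCs (−1.26, −1.90 to −0.49) and in SVZ neuroblasts (−0.95, −1.12 to −0.78), and is uncertain because its identifier, ENSMUSG00000096768, carries the name Gm47283 and a place on chromosome Y in GENCODE vM21. Whether its reads came from more than 1 copy was not tested. Polr2i, a subunit of RNA polymerase II, went from 118 to 5 UMIs (−1.74, −3.52 to −0.61) and had 2 at 24 months. Sox2, the transcription factor of neural stem and progenitor cells, went from 123 UMIs (168 CPM) to 7 (61.8 CPM) and had 6 (209 CPM) at 24 months (−1.35, −2.79 to −0.36), and was found in 64 of 125, 5 of 21 and 3 of 4 cells. Its ratio was −0.76 (−3.32 to 0.77) in cells with Neurod1 alone and −0.65 (−2.45 to 0.54) in cells with Y-linked and no Xist UMIs. In the thinned counts it was −0.03 (−5.98 to 2.20), on 12 and 1 UMIs. Hdgfrp3 went from 113 to 6 UMIs (−1.44, −3.02 to −0.38), and had 14 and 3 in the thinned counts.

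The gene 2810417H13Rik, named Pclaf in GENCODE vM21 and encoding a partner of the replication clamp PCNA, went from 95 UMIs in 14 cells to 5 in 1 cell (−1.43, −3.22 to −0.29), and had no UMI at either age in the thinned counts. Further genes below the 2-fold limit were Ostc, Ndufb6, Plpp3, Dnajc19, Ddr1 and Fgfr1, with log2 ratios from −1.13 to −1.001 and interval bounds nearest 0 between −0.21 and −0.02. Among them Fgfr1 is a fibroblast growth factor receptor of progenitors, Ddr1 a collagen receptor, and Ndufb6 and Dnajc19 are mitochondrial proteins. In OPCs the intervals of Polr2i, Sox2, Hdgfrp3 and these 6 genes all held 0. In neuroblasts with both Eomes and Neurod1, the intervals of Erdr1, Polr2i, Sox2 and Ndufb6 lay below 0. Those of the other lower genes named here held 0. In cells with Neurod1 alone, the intervals of Hdgfrp3, Plpp3 and Fgfr1 lay below 0 and those of the others held 0.

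None of the 8 granule neuroblast markers outside the selection was past 2-fold between 3 and 14 months. Among the lineage transcription factors 1 was, Sox2, a factor of stem and progenitor cells. The interval of Sox2 held 0 in cells with Neurod1 alone. The 8 granule neuroblast markers outside the selection summed to 11445 CPM at 3 months, 12234 CPM at 14 months and 14016 CPM at 24 months, a log2 ratio of 0.10 (0.01 to 0.18) for 14 over 3 months, and of 0.05 (−0.04 to 0.13) without the top cell of each library. Prox1 stood at 221, 371 and 279 CPM (0.76, 0.22 to 1.25), with a ratio of 0.56 (−0.04 to 1.10) without the top cell of each library. Calb2 stood at 821, 1209 and 732 CPM (0.56, 0.28 to 0.83), but at 783 and 787 CPM (0.01, −0.34 to 0.34) without the top cell of the 3 and 14 month libraries, and the median cell held 342 CPM at 3 months and 0 at 14 months. In the thinned counts Calb2 had 107 and 2 UMIs (−2.40, −5.78 to −0.83). Sox11 stood at 2908, 2392 and 3905 CPM (−0.28, −0.47 to −0.10). The 24 month level of Sox11 lay above both younger levels. Of 30 lineage transcription factors outside the selection, 21 were compared, none was at least 2-fold higher and 1, Sox2, was lower (against 0.469% and 0.805% of all genes compared), and the sum differed by 0.04 (−0.02 to 0.10). Zbtb20, which shapes hippocampal identity, stood at 3244 and 3893 CPM (0.26, 0.11 to 0.41), and Emx1, a homeobox factor of the dorsal forebrain, at 234 and 132 CPM (−0.78, −1.69 to −0.06). The ratio of Emx1 was −1.12 (−2.21 to −0.30), past 2-fold, without the top cell of each library, −1.60 (−3.66 to −0.37) in cells with both Eomes and Neurod1, on 112 and 4 UMIs, and −0.02 (−1.17 to 0.89) in cells with Neurod1 alone. The 7 intermediate progenitor genes summed to 1142, 1077 and 1255 CPM, with a log2 ratio of −0.08 (−0.37 to 0.19) for 14 over 3 months.

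Cytoskeletal genes, which extend the leading process and the axon, had summed ratios near 0 between 3 and 14 months. None of their 41 compared genes was past 2-fold, which is near the overall share of 1.27%. Tuba1b was past it without 1 cell of each library. The 11 tubulins other than Tubb3 summed to 21714 CPM at 3 months, 20778 CPM at 14 months and 19211 CPM at 24 months, with a log2 ratio of −0.06 (−0.13 to −0.00) over 6 compared genes. The ratio was 0.02 (−0.07 to 0.11) in cells with both Eomes and Neurod1 and −0.23 (−0.32 to −0.14) in cells with Neurod1 alone. Tuba1b had a ratio of −0.63 (−1.08 to −0.23), with 27 of its 53 UMIs at 14 months in 1 cell. It stood at 679 and 252 CPM without the top cell of each library, a ratio of −1.41 (−2.06 to −0.86) that is past 2-fold, and had in cells with Neurod1 alone one of −1.88 (−3.20 to −0.94), from 129 to 8 UMIs. The 27 microtubule regulators differed by −0.01 (−0.09 to 0.08), with 15 compared, and the 24 actin and growth cone genes by −0.01 (−0.07 to 0.04), with 20 compared. Stmn1 stood at 5866 and 5375 CPM, Marcksl1 at 2466 and 2454 CPM, and Dcx at 268, 362 and 384 CPM over the 3 ages (0.44, −0.09 to 0.92). The ratio of Dcx was 0.89 (0.23 to 1.47) in cells with both Eomes and Neurod1 and −0.20 (−1.28 to 0.67) in cells with Neurod1 alone. At 14 months 1 cell held 10 of its 41 UMIs, and the ratio was 0.19 (−0.43 to 0.73) without the top cell of each library. SVZ neuroblasts had a log2 ratio of 0.13 (0.11 to 0.15) for the microtubule regulators.

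The summed genes of contact and signalling had intervals that held 0 in the full counts of all neuroblasts. In the thinned counts that of guidance and adhesion lay above 0 (0.59, 0.07 to 1.06, on 229 and 42 UMIs). The 28 guidance and adhesion genes differed by 0.12 (−0.07 to 0.30), the 21 presynaptic genes by −0.04 (−0.25 to 0.16), the 23 glutamate and GABA receptor genes by −0.05 (−0.41 to 0.29), the 13 Notch genes by −0.02 (−0.54 to 0.45) and the 16 survival and death genes by 0.12 (−0.17 to 0.39). None of the 15 genes compared in these lists was past 2-fold, which is near the overall share of 1.27%. Within the Eomes and Neurod1 groups some lists differed. The presynaptic ratio was −0.44 (−0.80 to −0.12) in cells with both genes and 0.34 (0.06 to 0.62) in cells with Neurod1 alone, the latter 0.28 (−0.03 to 0.58) without the top cell of each group, and that of the receptor genes was −0.67 (−1.42 to −0.06) and 0.14 (−0.31 to 0.55). The nearest was Vamp2, the vesicle SNARE, at 201 and 97.1 CPM with a log2 ratio of −0.99. The glutamate receptor gene Gria2 stood at 494 and 415 CPM, and the adhesion molecule Ncam1 at 540 and 653 CPM.

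Interferon response genes gave few UMIs at each age. The 24 genes summed to 191, 32 and 12 UMIs, or 262, 282 and 418 CPM, with no gene reaching 100 UMIs, and the log2 ratio of 14 over 3 months was 0.13 (−0.48 to 0.66). It was 0.87 without the Pdgfra and Gad1 limits, which brought in 1 cell at 3 months and 2 at 14 months. Over the same list, SVZ neuroblasts had a ratio of 1.38 (1.24 to 1.52) and DG OPCs one of 0.44 (0.23 to 0.67). The difference between these cell sets was not tested.

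**Figure D5:**
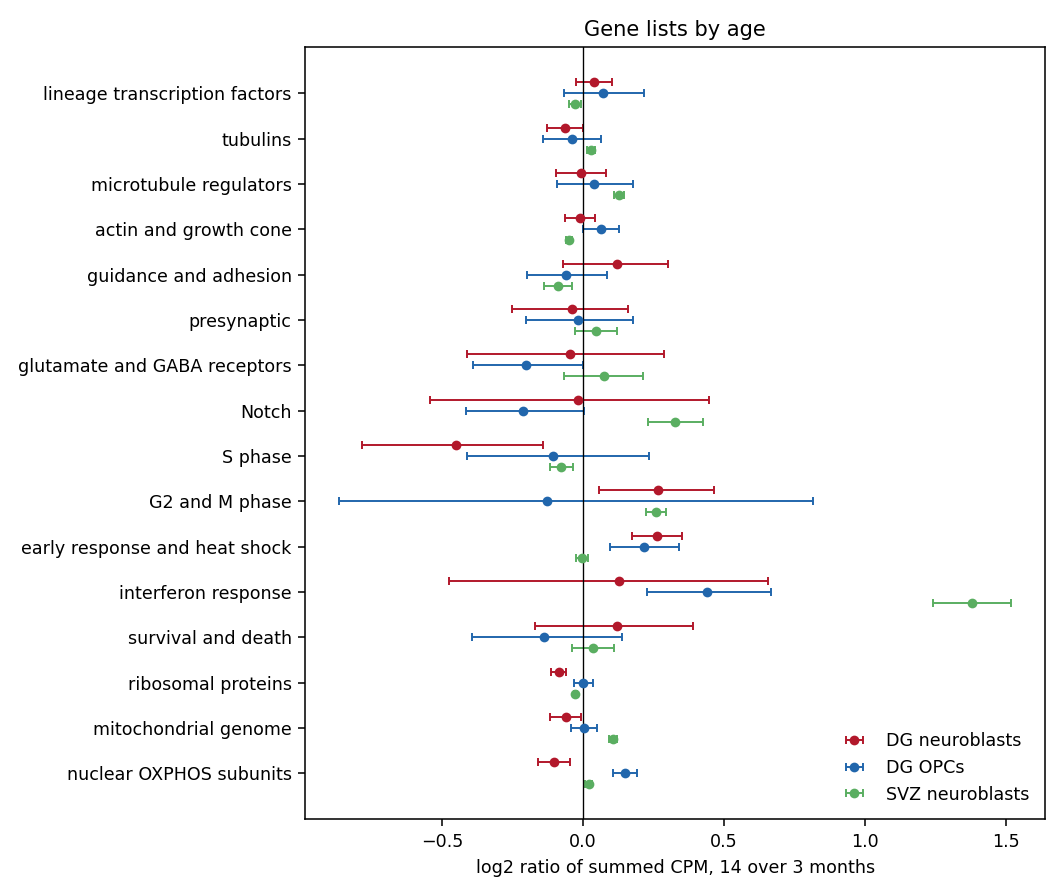
Log2 ratio of the summed CPM at 14 over 3 months (x axis) for 16 gene lists (y axis) in DG neuroblasts, DG OPCs and SVZ neuroblasts, with exact 95% counting intervals as bars. In DG neuroblasts the cytoskeletal lists lay within 0.1 of 0, and the interferon list stood at 0.13, against 0.44 in OPCs and 1.38 in SVZ neuroblasts.

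Cell cycle sums depended on few cells. At 3 months 9 of 125 neuroblasts held at least 10 UMIs of the 18 G2 and M phase genes, against 1 of 21 at 14 months and 1 of 4 at 24 months. That 1 cell at 14 months held 212 of the 234 UMIs, so the summed levels of 1722, 2065 and 872 CPM and their log2 ratio of 0.27 (0.05 to 0.46) turn to −2.78 without the top cell of each library. The 18 S phase genes were spread more widely, over 115 of 125 cells at 3 months, and summed to 1103, 803 and 976 CPM (−0.45, −0.79 to −0.14). Only 3 of them were compared and none was past 2-fold, too few to read against the 1.27% of all genes compared. Further, 16 cells with at least 10 UMIs held 488 of the 805 UMIs at 3 months, and the median cell held 545 CPM at 3 months and 550 CPM at 14 months. Within the cells with both Eomes and Neurod1 the S phase ratio was −0.16 (−0.59 to 0.21).

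Measures of RNA composition are given beside the age ratios. Malat1, a nuclear noncoding RNA, stood at 42315 CPM at 3 months, 57109 CPM at 14 months and 23499 CPM at 24 months, a log2 ratio of 0.43 (0.39 to 0.47) for 14 over 3 months, against −0.07 (−0.09 to −0.05) in OPCs and −0.02 (−0.03 to −0.01) in SVZ neuroblasts. The median cell held 45739 CPM at 3 months and 50953 CPM at 14 months, and 1 cell held 1161 of the 6470 UMIs at 14 months, with a ratio of 0.26 (0.22 to 0.30) without the top cell of each library. Meg3, another nuclear noncoding RNA and below the minimum for comparison, had 85 UMIs (116 CPM) at 3 months, 2 (17.7 CPM) at 14 months and 0 at 24 months (−2.41, −5.79 to −0.82), and Neat1 had 2, 0 and 0 UMIs. The 85 ribosomal protein genes differed by −0.09 (−0.11 to −0.06) and the 13 mitochondrial genome genes by −0.06 (−0.12 to −0.01). The 80 nuclear subunits of oxidative phosphorylation differed by −0.10 (−0.16 to −0.05). Of the 162 compared genes of these lists 1, Ndufb6 (0.617%), was past 2-fold. With 1 gene, that is near the 1.27% of all genes compared. The part of RNA composition in the single gene ratios was not tested.

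Marker genes of other cells were summed in the same way. The 10 radial stem cell or astrocyte genes, led by Apoe, summed to 1140, 1262 and 697 CPM (0.15, −0.12 to 0.40), in 122 of 125 and 21 of 21 cells at 3 and 14 months, close to the sum of the intermediate progenitor list. At 14 months 1 cell held 42 of the 143 UMIs, and the ratio was −0.22 (−0.54 to 0.07) without the top cell of each library. The 8 OPC genes summed to 38.4, 88.3 and 69.7 CPM, or 28, 10 and 2 UMIs, with 15 of the 28 in 1 cell and a ratio of 1.25 (−0.00 to 2.29), or 2.11 (0.60 to 3.45) without the top cell of each library. Among them Olig1, a transcription factor of the oligodendrocyte lineage, was found in 4 of 125 neuroblasts (3.20%, 0.879 to 7.99) at 3 months, 7 of 21 (33.3%, 14.6 to 57.0) at 14 months and 0 of 4 at 24 months, with 8 UMIs in all at 14 months, and in Eomes progenitors in 7.25% (2.39 to 16.1) and 27.3% (6.02 to 60.97). It was found in every OPC, and OPCs were 5.27% and 44.0% of the 3 and 14 month barcodes within the limits. The OPC list also had ratios of 2.26 (0.48 to 4.12) in cells with Neurod1 alone, on 6 and 7 UMIs, and of 1.61 (0.32 to 2.72) in Eomes progenitors. The 7 oligodendrocyte genes summed to 69.9, 70.6 and 0 CPM, and the 7 pyramidal or mossy neuron genes to 39.7, 79.4 and 69.7 CPM. Their part in the gene ratios was not tested.

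Both sexes were in the pools. At 3 months 32 neuroblasts held Xist without a Y-linked UMI, 52 held a Y-linked UMI without Xist, 1 held both and 40 neither, and at 14 months the numbers were 4, 9, 0 and 8. The 5 sex-linked genes summed to 592, 530 and 1185 CPM (−0.15, −0.57 to 0.23), with 3 of 4 cells at 24 months holding Xist. At 24 months the 4 neuroblasts all held Igfbpl1, Sox11 and Sox4, with lineage transcription factors at 22767 CPM and actin and growth cone genes at 37166 CPM, but 28682 UMIs in all allow no statement on single genes of low count.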

How the data were processed

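The deposited values are unnormalized UMI counts for each gene in each barcode, made by the authors with Cell Ranger 3.0.2 on mm10 (per the labels). All 9 libraries were read. Members, gene lists and comparison cells were chosen with earlier results of these data known. UMIs were summed over the cells of a library and given as CPM, ratios used a pseudocount of 0.5 UMI, and counts, shares and ratios carry exact Poisson, Clopper-Pearson and conditional binomial 95% intervals. Genes that reached 100 UMIs when both sums were added were compared. Named genes were members of the lists, up to 15 genes per direction among those past 2-fold, ordered by the interval bound nearest 0, without mt- and ribosomal genes, and the 10 leading genes over OPCs and over Eomes progenitors. Genes against SVZ neuroblasts, Calb2 by group, Tac2, Ccnd2, Malat1, Meg3, Olig1 and the promoter element were chosen after their values were seen. Members were not filtered for doublets. Scrublet, from scanpy 1.11.5, was run on each DG library with 0.01 as the expected doublet rate and called 7, 20 and 30 barcodes, among them 1 neuroblast at 14 months. The calls were 0.787% of 890 barcodes at 3 months, 1.67% of 1198 at 14 months and 8.60% of 349 at 24 months. Gene coordinates are from GENCODE vM21 for GRCm38, matched by identifier for 432 of 432 genes. Python 3.11.15, numpy 2.4.6, scipy 1.17.1, pandas 2.3.3 and matplotlib 3.10.9 were used, and the ratios and intervals were tested on simulated counts. Alternatives concerned the cell rule, depth, doublets, sex, scaling, pseudocount and count minimum. Single-gene values of 1 gene in the 2-fold lower group are not reported here.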

Additional observations from a re-analysis of the deposited data

Results flagged for a closer look

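Some results stood out and were not tested. Btg2 had a log2 ratio of 14 over 3 months of 1.07 in DG neuroblasts and of −0.64 (−1.42 to −0.01) in Eomes progenitors with low Tubb3 of the same libraries, and the intervals lay on opposite sides of 0. Zranb2 had 1.07 in DG neuroblasts and −0.70 (−1.12 to −0.22) in OPCs. Hdgfrp3 had −1.44 in DG neuroblasts and 0.20 (0.03 to 0.36) in SVZ neuroblasts. These differences between cell sets were not tested.

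Cells outside the DG also met the selection, in numbers above the limit of 3 that a count of 0 allows. They numbered 12 in the SVZ at 3 months, 5 in the SVZ at 14 months, 5 in the OB at 3 months and 17 in the OB at 14 months. The SVZ cells all held Igfbpl1 (17 of 17) and none held Tac2. Of the same cells, 8 of the 12 at 3 months and 3 of the 5 at 14 months held Gad2, and of the 17 cells 7 held Dlx2, 6 held Tbr1, 5 held Neurod2 and 11 held Lhx2. Of the 17 OB cells at 14 months 17 held Eomes, 9 held Tbr1, 9 held Lhx2, 6 held Emx1, 6 held Calb2 and 2 held Igfbpl1, and none held Prox1 or Gad2.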

How the results depend on the processing

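No paired analysis was possible because each age has a single library. The neuroblast share kept its order by age in the alternatives to the cell rule. It was 14.96% at 3 months with at least 5 UMIs of Tubb3, and 8.12%, 0.676% and 0.345% at 3, 14 and 24 months with barcodes thinned to 1500 UMIs, which left 57, 7 and 1 cells. The thinned sums left 131 genes to compare, none of them among the 19, so that their 0 genes higher and 2 lower cannot be set against 7 and 12. They gave log2 ratios of −0.10 for lineage factors, 0.064 for tubulins, −0.21 for actin genes, 0.59 for guidance, 0.27 for presynaptic, −1.22 for G2 and M phase, −0.19 for early response, −0.048 for ribosomal, −0.38 for mitochondrial, 0.045 for oxidative phosphorylation, −0.14 for inhibitory and 0.70 for Cajal-Retzius genes. Of these, G2 and M phase rested on 9 and 0 UMIs, inhibitory genes on 4 and 0 and Cajal-Retzius genes on 7 and 1. Their directions are not fixed. Only the intervals of actin, guidance and mitochondrial genes did not hold 0 in the thinned sums. There, on 1 to 5 UMIs at 14 months and with intervals that held 0, Egr1 stood at −0.75, Ier2 at −0.28, Btg2 at −0.32, Hdgfrp3 at 0.97 and Ddr1 at 0.49. No ratio was taken where both sums were at most 3 UMIs, as for 2810417H13Rik. Thinning changed both the depth and the cells selected.

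The count of genes higher and lower was 28 and 84 with at least 50 UMIs and 2 and 0 with at least 200, 4 were higher when Eomes was not used, 20 were lower by the mean of single-cell CPM, and 5 were lower in cells with Y-linked UMIs. Those 5 were Mdk, Tspan7, Emc10, Taldo1 and Luc7l3. Cells with Y-linked UMIs left 587 genes to compare and cells with Xist 278. In each, only 1 of the 19 genes past 2-fold, Ier2, was compared. Counts from these cells therefore cannot be set against those of all neuroblasts. With at least 5 UMIs of Tubb3, lineage factors were at −0.030 and G2 and M phase at 0.74, and with at least 2, G2 and M phase was at −0.099 and ribosomal genes at −0.016. Ribosomal genes were at −0.061 without doublets and when centred on the median gene, at −0.056 by the mean of cells, and at −0.12 without the top cell of each library, a setting added after the data were seen. That setting gave −2.78 for G2 and M phase and −2.11 for inhibitory genes, which were also at −2.11 when Eomes was not used. Mitochondrial genes were at 0.0062 with at most 5% mt- UMIs.

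Without the Pdgfra and Gad1 limits, lineage factors were at −0.071, tubulins at −0.18, microtubule regulators at −0.11, early response at 0.17 and interferon at 0.87. Without cells holding Mki67, Top2a or Cdk1, lineage factors were at −0.034, S phase at −0.091, G2 and M phase at 0.96 and ribosomal genes at −0.036. In cells with Xist and no Y-linked UMI (32 and 4 cells), tubulins were at 0.059, microtubule regulators at 0.090, Notch at 0.81, G2 and M phase at −3.95, early response at 0.92, survival at −0.48, ribosomal genes at −0.20, oxidative phosphorylation at −0.25, inhibitory at −1.26, Cajal-Retzius at 1.32 and Zranb2 at −0.018. The inhibitory value rested on 12 and 0 UMIs and the Cajal-Retzius value on 10 and 2. Neither fixes a direction, because both intervals held 0. The intervals of tubulins, microtubule regulators, Notch, survival and Zranb2 held 0 as well. In cells with Y-linked UMIs and no Xist (52 and 9 cells), tubulins were at 0.0065, S phase at −0.89, G2 and M phase at 0.87, early response at 0.077, inhibitory genes at −3.01 and Btg2 at −0.34. The inhibitory value rested on 24 and 0 UMIs and on the pseudocount of 0.5 UMI, so its size is not fixed. Among these values, only those of S phase and of G2 and M phase had intervals that did not hold 0. The causes were not tested. Over 19 alternatives Chgb ranged from 0.63 to 1.67. Polr2i had −1.15 as its highest ratio, and its lowest rested on 37 and 0 UMIs. Ier2 ranged from −0.28 to 2.21 and Btg2 from −0.34 to 2.71, each past 2-fold in 13 of the 19. Ddr1 ranged from −1.21 to 0.49 and was past 2-fold in 9, Klf6 in 12 and Ostc in 13.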
